A study of Mus musculus with 150 samples.

Results

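Opn3, Tcfl5, Acss1, Mfsd4a, A930001A20Rik and Camk2b are 6 of 17097 genes measured in whole lung of male mice that breathed air or 120 ppm styrene. They were chosen by their readout: the styrene effect, the level under styrene minus the level under air, differed between wild-type and CYP2F2-null mice. CYP2F2 is the cytochrome P450 of mouse club cells, the secretory cells of the small airways, and it oxidises styrene to reactive products. The array held 9 probe sets for the 6 genes, and each gene was followed by its brightest probe set, by the mean of the 150 arrays. All 6 genes passed the filter on dim values and were among the 15695 tested.

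Each array was the lung of 1 mouse, so replicates are separate animals. WT were C57Bl/6 mice (31 arrays). KO were C57Bl/6 mice of genotype CYP2F2(-/-) (39 arrays). TG, on the same background, carried the CYP2F2(-/-) deletion and a transgene labelled 2F1,SA13,2B6 (38 arrays); the promoter that drives it is not given in the labels. CD-1 mice (42 arrays) are an outbred stock with their own Cyp2f2. Mice were adult males and inhaled for 6 hours a day on 5 days a week. Each sample's own label gives 26, 52, 78 or 104 weeks of exposure, which is used here, while the treatment text shared by all samples gives 1 or 4 weeks, and the labels do not settle the conflict. There were 31 groups of 2 to 10. WT had no air group at 26 weeks among the data analysed here. Air was breathed by 71 mice and styrene by 79.

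Values are log2 levels after RMA, a normalisation of Affymetrix arrays. The filter level, under which 30% of the probe sets of an array fall, lay between 2.99 and 3.19. Plates were read from the well labels. Dose and plate coincide at 104 weeks, where plate 3 held the air arrays and plate 4 those of styrene, with 2 KO and 2 TG styrene arrays on plate 3 or 4. Plate 2 held every styrene array of KO and TG mice at 78 weeks and 4 of the 5 of WT, with their air controls on plate 1. The model held a term for plate 2. Only CD-1 air mice at 52 weeks, CD-1 styrene mice at 26 weeks and WT styrene mice at 78 weeks had arrays on plates 1 and 2. In each, 1 array stood alone on its plate, so the term rests on few arrays. In TG mice at 78 weeks 30 genes were called with the term and 7341 without it. Lung markers were bright on all arrays, with Sftpc of alveolar type 2 cells at 13.65 or above and Scgb1a1 of club cells at 13.59 or above. Cyp2f2 was at 13.43 ± 0.07 (SD, n = 11) in WT air mice, 12.12 ± 0.17 (n = 20) in KO and 12.11 ± 0.15 (n = 19) in TG air mice, and every KO array was below every WT array. Its probe set still gave a bright signal in KO lung, and whether it lies in the deleted part is not known. In CD-1 air mice it was 13.25 ± 0.30 (n = 21), with 1 tumour-labelled mouse at 104 weeks at 12.07. A difference in whole lung cannot tell a change in the number of cells of a type from a change in RNA per cell.

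The 6 genes have no common pathway. Opn3, or encephalopsin, is a G protein-coupled opsin found outside the eye. Tcfl5 is a basic helix-loop-helix transcription factor known from the testis. Acss1 is the mitochondrial acetyl-CoA synthetase that turns acetate into acetyl-CoA. Mfsd4a belongs to the major facilitator family of membrane transporters. A930001A20Rik is known here by its RIKEN clone name alone. Camk2b is the beta subunit of calcium/calmodulin-dependent kinase II, best known from neurons.

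In the contrast that chose the genes, the WT minus KO styrene effect averaged over 52, 78 and 104 weeks, 14 of 15695 genes (0.0892%) had an adjusted p under 0.05, the 6 among them. These values describe the choice and are no test. At 52 weeks all WT and KO arrays lay on plate 1, the only week of the 3 without a plate between the doses. The WT minus KO difference over the 3 weeks was 0.94 for Tcfl5, 0.56 for Opn3, -0.46 for Acss1, -0.78 for A930001A20Rik, -0.62 for Camk2b and -1.10 for Mfsd4a on the log2 scale. Camk2b, Tcfl5 and Kng1 lay just inside the threshold, with an adjusted p of 0.0245, and 4933440J02Rik just outside, with a difference of -0.34 and 0.0501. The parts of the contrast were not alike. The WT effect was 0.96 for Tcfl5, 0.56 for Opn3, -0.42 for Acss1, -0.82 for Mfsd4a and -1.07 for A930001A20Rik, against KO effects of 0.02, 0.00, 0.03, 0.29 and -0.29 in that order. For Camk2b the WT effect was 0.02 and the KO effect 0.64. In these choosing values the Camk2b difference lay in the KO mice, which lack CYP2F2, and not in WT; in KO mice at 26 weeks and in TG mice, outside the choice, Camk2b did not pass.

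**Figure D1:**
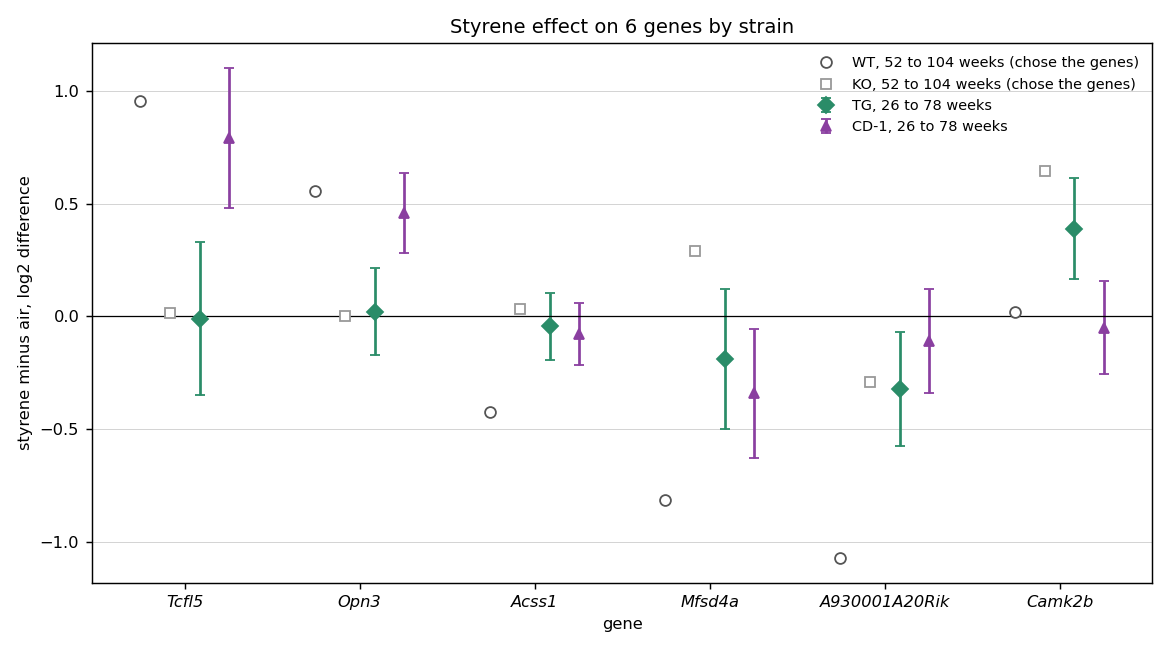
Styrene minus air difference (log2, vertical axis) of the 6 genes (horizontal axis) by strain. Open symbols are the WT and KO means over 52 to 104 weeks that chose the genes, shown without error; filled symbols are TG and CD-1 means over 26 to 78 weeks with 95% confidence intervals, of which the CD-1 intervals of Tcfl5, Opn3 and Mfsd4a and the TG intervals of Camk2b and A930001A20Rik leave out 0.

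The genes with higher levels in exposed WT mice, Opn3 and Tcfl5, are shown with the 250 bases before their RefSeq start (GRCm38.p6, 5′ to 3′ on the gene's strand, minus for both), because both also passed the test in CD-1 mice. Opn3's window is chr1:175692633-175692882 and that of Tcfl5 chr2:180642692-180642941. Capitals mark GCGTG or its reverse complement CACGC, the core of the element that the aryl hydrocarbon receptor binds.
Opn3: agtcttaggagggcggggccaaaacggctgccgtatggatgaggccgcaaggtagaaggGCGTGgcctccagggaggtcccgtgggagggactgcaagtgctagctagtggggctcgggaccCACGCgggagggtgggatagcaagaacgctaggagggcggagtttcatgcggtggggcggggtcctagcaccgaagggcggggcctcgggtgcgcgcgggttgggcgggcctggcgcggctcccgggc
Tcfl5: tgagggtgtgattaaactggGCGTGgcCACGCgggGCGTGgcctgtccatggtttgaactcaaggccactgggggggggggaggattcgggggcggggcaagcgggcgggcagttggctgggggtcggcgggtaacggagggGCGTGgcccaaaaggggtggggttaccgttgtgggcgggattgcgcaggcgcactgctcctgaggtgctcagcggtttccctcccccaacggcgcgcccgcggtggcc

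The core GCGTG occurred 4 times before Tcfl5, from 230 to 108 bases before the start, and in Opn3 at 191 and 128 bases. No match overlapped another. Over both strands it was found in 3 of the 6 windows (Camk2b the other) and in 28.2% of 32851 promoter windows of the same length. Both windows were 70.4% G and C, against a median of 52.4%, and the core holds mostly these bases. The E-box CACGTG (6.02% of all windows), the antioxidant core TGACNNNGC (10.2%) and the cAMP element TGACGTCA (1.55%) were in none of the 6 windows. A match describes letters, not binding, and no factor was measured here.

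CD-1 mice, which played no part in the choice, had higher Opn3 and Tcfl5 under styrene. Averaged over 26, 52 and 78 weeks, 131 of 15695 genes (0.835%) passed limma's test at an adjusted p under 0.05, and 2 of the 6 genes were among them, both higher. Opn3 rose by 0.46 ± 0.09 (SE), with an adjusted p of 0.00087. Tcfl5 rose by 0.79 ± 0.16, with an adjusted p of 0.000938. The other 4 did not pass: Mfsd4a was -0.34 ± 0.14 (adjusted p 0.315), A930001A20Rik -0.11, Acss1 -0.08 and Camk2b -0.05. The median over the 6 genes was -0.06, and over all genes 0.01. Both calls ended when the CD-1 arrays were fitted apart from the C57Bl/6 arrays, with the same differences of 0.79 and 0.46 and adjusted p of 0.299 and 0.0814. The Opn3 call also ended over 26 and 52 weeks alone (0.36, adjusted p 0.178), and the stricter filter removed Tcfl5 from the test.

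At 26 weeks Opn3 was 5.22, 5.33, 5.59, 5.62 and 5.70 in CD-1 air mice and 5.95, 5.95, 6.15, 6.43 and 6.48 under styrene. All 5 exposed mice lay above all 5 controls. The difference was 0.67 ± 0.14 with an adjusted p of 0.00303. Tcfl5 at this time was 2.36, 2.53, 2.53, 2.64 and 2.79 in air and 3.20, 3.37, 3.80, 4.22 and 4.86 under styrene. Here too the groups did not overlap, as for 1.95% of all genes at this time. The exposed mice spread over a range of more than 1 unit while all controls lay under the filter level, where differences are compressed. The difference was 1.40 ± 0.25 with an adjusted p of 0.000101. These were the 2 of 6 genes called at 26 weeks, against 102 of all genes (0.65%). Fitted apart from C57Bl/6, Opn3 (0.65, adjusted p 0.178) and Tcfl5 (1.42, adjusted p 0.203) were not called at 26 weeks.

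At 52 weeks neither gene passed in CD-1 mice, where 11 genes (0.0701%) were called and none of the 6. Opn3 under styrene was 5.25, 5.64 and 6.37 against 5.59, 5.64, 5.82 and 5.88 in air, so 1 exposed mouse was above and 1 below all controls. Tcfl5 was 3.11, 3.34 and 3.79 against 2.70, 2.74, 2.92 and 3.01. Its 3 exposed mice lay above the 4 controls, where 5.19% of all genes had no overlap. The difference was 0.48 ± 0.30 (adjusted p 0.978).

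At 78 weeks 19 genes (0.121%) were called in CD-1 mice and none of the 6. Opn3 was 6.05, 6.06 and 6.14 under styrene and 5.17, 5.39, 5.46, 5.49 and 5.63 in air. All 3 exposed mice were above all 5 controls, as doses were apart for 7.81% of all genes, and the difference of 0.65 ± 0.16 had an adjusted p of 0.0559. It passed under 6 of 11 alternatives (adjusted p 0.00137 to 0.389 over all 11), and without the air array of replicate 2. Tcfl5 was 3.73, 4.08 and 4.35 under styrene, but 2 of the 5 air mice, at 4.15 and 4.39, were as high, and the difference was 0.50 ± 0.28 (adjusted p 0.569).

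At 104 weeks Opn3 in CD-1 mice ran from 5.12 to 5.80 (median 5.47, n = 7) in air and from 6.06 to 7.02 (median 6.70, n = 10) under styrene. The doses again did not overlap, as for 5.74% of all genes. Tcfl5 ran from 3.11 to 4.19 (median 3.66) in air and from 3.27 to 5.92 (median 4.76) under styrene. The Tcfl5 groups overlapped, with 4 of the 10 exposed mice below the highest control. The differences were 1.20 ± 0.11 for Opn3 (adjusted p 6.13e-17) and 0.99 ± 0.19 for Tcfl5 (adjusted p 3.31e-06). In this comparison 9977 genes (63.6%) were called, 2 of the 6 genes among them, and dose and plate cannot be told apart. The median over all genes was 0.16, and over the 6 genes 0.14. Of the markers, 5 of 13 club cell and 6 of 12 ciliated cell ones were called higher and 1 ciliated marker lower. Of all 15695 genes 6724 were called higher and 3253 lower, so such calls were common. The mean club cell marker level ran from 9.78 to 11.27 in air and from 11.06 to 11.70 under styrene, and the ciliated one from 6.27 to 8.09 and from 7.39 to 8.66. Their part in the result was not tested.

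**Figure D2:**
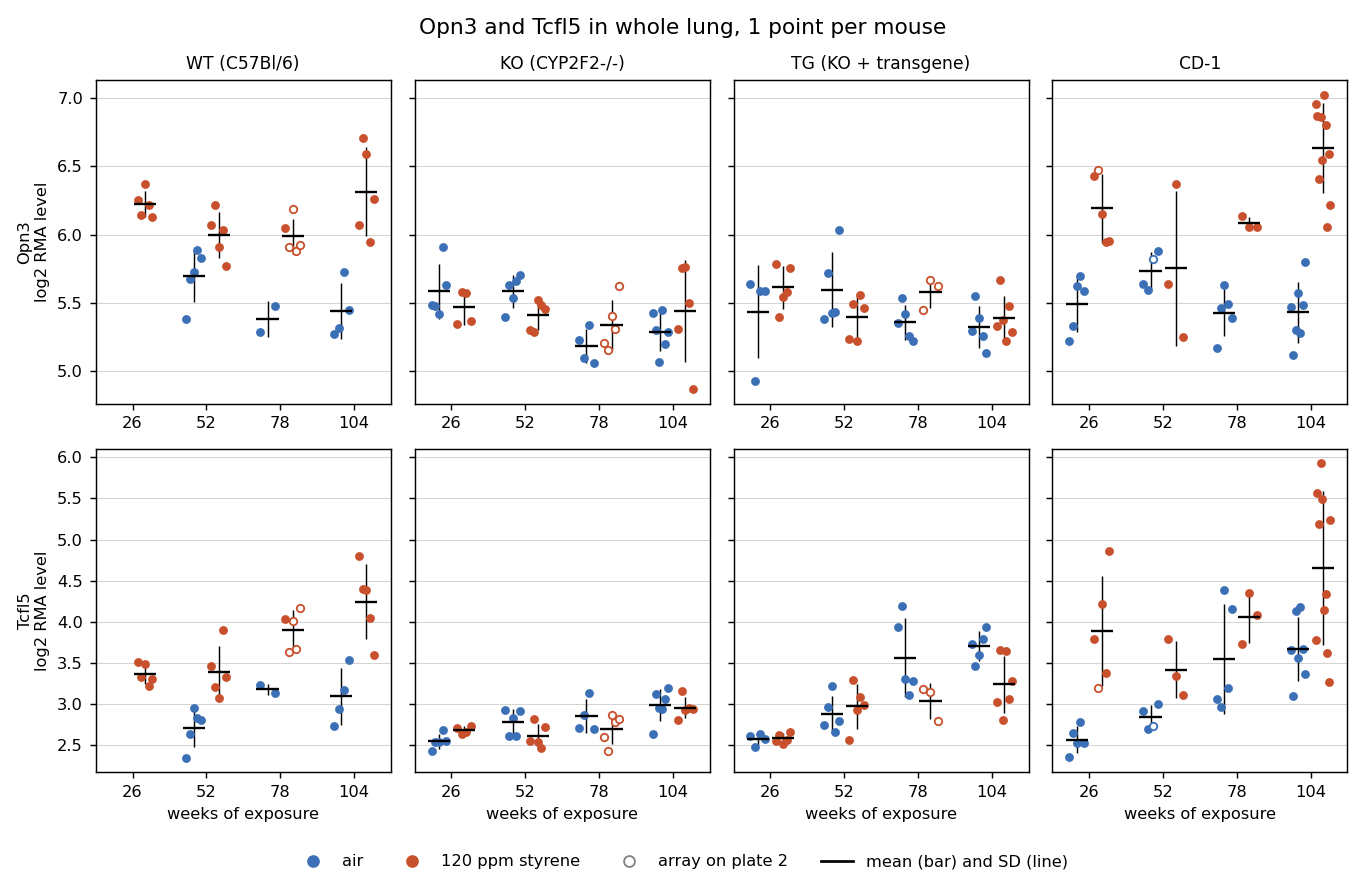
Log2 level of Opn3 (upper row) and Tcfl5 (lower row) by weeks of exposure, 1 column per strain and 1 point per mouse, blue for air and red for styrene. Bars are means, vertical lines SD and open points arrays on plate 2; Opn3 is at 5.77 or above in every exposed WT mouse and, apart from 2 mice at 52 weeks, at 5.95 or above in every exposed CD-1 mouse, while the KO doses both lie between 4.87 and 5.91.

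TG mice, which lack CYP2F2 and carry the transgene, did not pass the test for Opn3 or Tcfl5 at any time. Over 26 to 78 weeks no gene was called (0%), by limma, with 2104 of all genes and 2 of the 6 at an unadjusted p under 0.05. Opn3 differed by 0.02 (95% interval -0.17 to 0.22) and Tcfl5 by -0.01 (-0.35 to 0.33). None of the 6 was called at 26 weeks (0% of all genes, 366 at an unadjusted p under 0.05), at 52 weeks (0.0127%) or at 104 weeks (0%, 980 unadjusted). Opn3 in TG air mice at 26 weeks was 4.93, 5.59, 5.59 and 5.64, and under styrene 5.40, 5.55, 5.58, 5.75 and 5.79. The doses overlapped. Tcfl5 there ran from 2.48 to 2.64 in air and from 2.52 to 2.66 under styrene. Tcfl5 means of TG mice lay under the filter level in both doses at 26 and 52 weeks, where differences are compressed.

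The difference between CD-1 and TG effects was tested directly. Over 26 to 78 weeks 15 genes (0.0956%) were called and none of the 6, with 3 of the 6 at an unadjusted p under 0.05. The CD-1 minus TG difference was 0.44 for Opn3 (interval 0.17 to 0.70, adjusted p 0.29), 0.80 for Tcfl5 (0.34 to 1.26, adjusted p 0.224) and -0.44 for Camk2b (-0.75 to -0.13, adjusted p 0.435). Tcfl5 passed without the plate term (0.94, adjusted p 0.0211) and without tumour-labelled mice (0.80, adjusted p 0.0445). Over all 4 weeks Tcfl5 (0.96, adjusted p 0.000879) and Opn3 (0.61, adjusted p 0.000138) both passed. That mean called 514 of all genes, against 15 in the planned one. It takes in 104 weeks, where dose and plate cannot be told apart. At 104 weeks alone, a comparison added after the data were seen, the difference was 1.13 ± 0.17 for Opn3 (adjusted p 1.88e-07), 1.45 ± 0.30 for Tcfl5 (4.88e-05) and 0.37 ± 0.13 for Acss1 (0.0168). The TG part of these differences was 0.07 for Opn3, -0.46 ± 0.23 for Tcfl5 and -0.20 ± 0.10 for Acss1, none of them called, so for Tcfl5 and Acss1 lower values in exposed TG mice add to it. That made 3 of 6 genes, where 46% of all genes were called and both strains had air and styrene on different plates. The Acss1 call was lost without tumour-labelled mice (0.26, adjusted p 0.156).

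At 26 weeks KO mice offer a comparison that the choice did not use. Opn3 in KO mice was 5.42, 5.48, 5.49, 5.63 and 5.91 in air and 5.34, 5.37, 5.57 and 5.58 under styrene, and Tcfl5 2.43 to 2.69 and 2.64 to 2.73. Exposed KO mice did not lie above their controls for Opn3 (-0.12 ± 0.15). No gene was called in KO mice at 26 weeks (0%, with 363 unadjusted and none of the 6). The CD-1 minus KO effect at 26 weeks was 0.79 ± 0.20 for Opn3 (adjusted p 0.304) and 1.26 ± 0.36 for Tcfl5 (0.661). Neither passed, in a comparison with 4 called genes (0.0255%).

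Exposed WT mice at 26 weeks, also outside the choice, had no air group, so they were set against exposed KO mice, which compares levels and not effects. Of all genes 53 (0.338%) were called, and 2 of the 6. Opn3 was 6.13, 6.14, 6.22, 6.25 and 6.37 in WT, all above the 4 exposed KO mice, and higher by 0.76 ± 0.15 (adjusted p 0.00117). A930001A20Rik was 3.30, 3.42, 3.50, 3.60 and 3.64 in WT against 4.15, 4.18, 4.49 and 4.63 in KO. The WT minus KO difference was -0.87 ± 0.19 (adjusted p 0.00927), again without overlap. The A930001A20Rik call was lost without KO styrene replicate 2 (adjusted p 0.0887) or 3 (0.0528). The other 4 were not called: Acss1 was -0.42 (adjusted p 0.061), Tcfl5 0.68 (0.168), Camk2b 0.56 (0.111) and Mfsd4a -0.58 (0.189). Beside these, the mean ciliated cell marker level was 7.82 to 8.17 in WT and 7.98 to 8.70 in KO, with none of its 12 markers called.

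In air at 26 weeks TG and KO mice did not differ in any of the 6 genes by this test (4 genes called, 0.0255%; differences from -0.15 for Opn3 to 0.14 for Mfsd4a).

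In WT mice, the group that chose it, Opn3 was 5.39, 5.68, 5.72, 5.83 and 5.89 in air at 52 weeks and 5.77, 5.91, 6.03, 6.07 and 6.22 under styrene. At 78 weeks the 2 air mice were at 5.29 and 5.48 and the exposed mice ran from 5.88 to 6.19. At 104 weeks the 4 controls were at 5.28 to 5.73 and the exposed mice at 5.95 to 6.71. The WT doses overlapped at 52 weeks and were apart at 78 and 104, as were those of 8.55% and 37.4% of all genes. The Opn3 level of exposed WT mice was thus highest at 104 and 26 weeks, with means of 6.32 ± 0.33 and 6.22 ± 0.10 (SD, n = 5 each), and 6.00 ± 0.17 and 5.99 ± 0.13 at 52 and 78 weeks.

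Tcfl5 in WT mice was 2.35, 2.64, 2.81, 2.83 and 2.95 in air at 52 weeks and 3.07, 3.21, 3.33, 3.46 and 3.90 under styrene. At 78 weeks it was 3.14 and 3.23 against 3.63 to 4.17, and at 104 weeks 2.73 to 3.54 against 3.59 to 4.80. Exposed and control mice were apart at all 3 times, at 104 weeks by less than the SD of either group. Of all genes 4.79% were apart at 52 weeks, 8.55% at 78 and 37.4% at 104. The mean of the WT controls at 52 weeks, 2.72, lay under the filter level. In KO mice Tcfl5 lay between 2.43 and 3.20 in both doses. Every KO group mean was under the filter level, where differences are compressed and a change could be missed.

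Age moved Tcfl5 in air controls as well. From 26 to 78 weeks it rose by 0.98 ± 0.24 in CD-1 air mice (adjusted p 0.00152) and by 0.99 ± 0.26 in TG air mice (adjusted p 0.00384). In CD-1 it was 2.36 to 2.79 at 26 weeks and 2.96, 3.06, 3.19, 4.15 and 4.39 at 78 weeks, all older mice above all younger ones. In TG it was 2.48 to 2.64 and then 3.11, 3.28, 3.31, 3.94 and 4.20. It was the 1 of 6 genes called with age in CD-1 mice, where 25.3% of all genes were called, and 1 of the 2 called in TG mice, where 18.3% were, so such calls are common here. Fitted apart, the CD-1 rise had an adjusted p of 0.0621. Opn3 did not pass with age in either strain (-0.06 and -0.08).

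A note of tumours stands in the labels of 2 of 7 air and 5 of 10 styrene CD-1 mice of the 104-week groups. In a model that held dose, no gene was called by limma (0%, with 1451 of all genes and none of the 6 at an unadjusted p under 0.05). The tumour-labelled minus other difference was 0.53 ± 0.34 for Tcfl5 (adjusted p 0.633) and 0.11 ± 0.14 for Opn3 (0.815).

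Acss1 and Mfsd4a, the enzyme and the transporter, were lower in exposed WT mice in the contrast that chose them and did not pass in any other strain up to 78 weeks. Acss1 was the brightest of the 6, between 7.91 and 8.99 on all arrays. In WT mice at 52 weeks it was 8.45, 8.82, 8.89, 8.93 and 8.99 in air and 8.20, 8.33, 8.35, 8.40 and 8.44 under styrene. At 78 weeks it was 8.56 and 8.80 against 8.07 to 8.39, and at 104 weeks 8.31 to 8.60 against 7.96 to 8.11. WT doses did not overlap at any of the 3 times, though they nearly touched at 52 weeks. Of all genes 4.79% were without overlap in WT mice at 52 weeks, 8.55% at 78 and 37.4% at 104, where separation is common. In KO mice the doses covered the same range, 7.94 to 8.74 in air (n = 20) and 7.95 to 8.78 under styrene (n = 19).

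WT air mice had the highest Acss1 of all air groups at 52 weeks, 8.81 ± 0.21 (SD, n = 5) against 8.50 ± 0.28 in KO, 8.51 ± 0.14 in TG and 8.48 ± 0.28 in CD-1 mice, and its range overlapped that of each of the others. Exposed WT mice at 26 weeks, at 7.98 to 8.26, lay below all 4 exposed KO mice, at 8.30 to 8.78. In CD-1 mice at 26 weeks Acss1 was 8.40 to 8.68 in air and 8.12, 8.13, 8.32, 8.39 and 8.68 under styrene. Here 4 of 5 exposed mice were below all controls and 1 was as high as the highest (-0.21 ± 0.11, adjusted p 0.73). At 104 weeks the CD-1 difference was 0.17 ± 0.08, in the other direction (adjusted p 0.0707), and it passed with arrays centred on their median (0.24, adjusted p 0.00824) or with the mean of the probe sets (0.20, 0.0118).

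After group means and the plate term were removed, Acss1 followed the mean of the ciliated and club cell markers over the 150 arrays (r = 0.55 and 0.54), as a description of arrays that share cell content and processing. In WT mice at 52 weeks the club cell mean level averaged 11.45 in air and 11.20 under styrene, and the ciliated one 8.35 (7.96 to 8.47) and 8.26 (8.02 to 8.65). Their part in the Acss1 difference was not tested. The other 2 Acss1 probe sets were above the filter level on 6 and 4 of 150 arrays and gave WT effects of 0.21 and 0.07, so the lower level in exposed WT mice rests on 1 probe set. With the mean of the probe sets the WT minus KO difference was -0.07.

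Mfsd4a in WT mice at 52 weeks was 4.24, 4.71, 4.77, 5.11 and 5.12 in air and 3.78, 3.79, 3.83, 3.94 and 4.11 under styrene. At 78 weeks it was 4.57 and 5.27 against 3.80 to 4.86, and at 104 weeks 4.42 to 5.40 against 3.93 to 4.60. The doses were apart at 52 weeks, as for 4.79% of all genes, and overlapped at 78 and 104. In KO mice Mfsd4a went the other way at 78 weeks, 4.18 to 4.48 in air and 4.59 to 5.22 under styrene, with all exposed arrays on plate 2. The doses were apart there, as for 3.13% of all genes. Most of the KO part of the choosing contrast came from there (0.52 at 78 weeks, 0.06 at 52 and 0.28 at 104). With C57Bl/6 mice fitted apart the 78-week value was 0.12. WT air mice were also higher than KO air mice, 4.88 ± 0.37 (n = 11) against 4.31 ± 0.20 (n = 20).

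CD-1 mice had lower Mfsd4a means under styrene at all 4 times, -0.48 ± 0.23 at 26 weeks, -0.38 ± 0.27 at 52, -0.16 ± 0.26 at 78 and -0.28 ± 0.17 at 104, none of them past the test. At 26 weeks the values were 4.09, 4.31, 4.60, 4.84 and 4.98 in air and 3.44, 3.81, 4.15, 4.35 and 4.72 under styrene, with wide overlap. The mean over all 4 weeks did pass in limma's test (-0.33, adjusted p 0.0233). It takes in 104 weeks, where dose and plate coincide and 63.6% of all genes were called in CD-1 mice. Over the alternatives the CD-1 mean called up to 5084 genes, against 131 in the planned mean. TG means were also lower under styrene at all 4 times and none passed, with -0.19 (interval -0.50 to 0.12) over 26 to 78 weeks. The other Mfsd4a probe set was above the filter level on 95 of 150 arrays and gave a WT effect of -0.18, with r = 0.46 to the brighter one. By week its WT effect was -0.51 at 52, -0.0037 at 78 and -0.015 at 104. The lower WT level at 78 and 104 weeks thus rests on 1 probe set. With the mean of both the WT minus KO difference was -0.70.

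**Figure D3:**
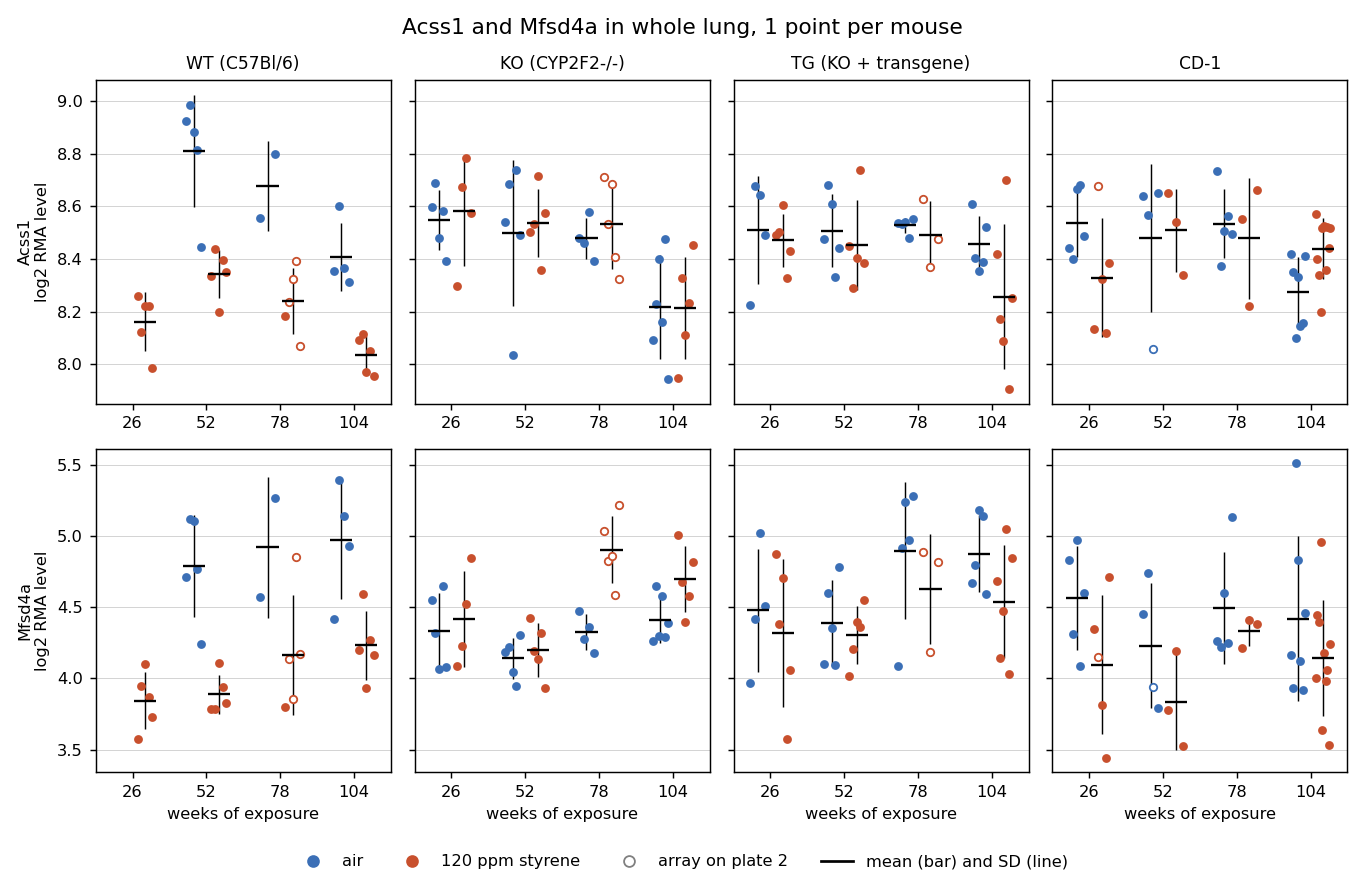
Log2 level of Acss1 (upper row) and Mfsd4a (lower row) by weeks of exposure, 1 column per strain and 1 point per mouse, with means, SD and plate 2 arrays drawn as for Opn3. Exposed WT mice lie below WT controls for Acss1 at 52, 78 and 104 weeks, and in the other 3 strains the doses overlap except for Mfsd4a in KO mice at 78 weeks.

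A930001A20Rik had a WT effect of -1.07 over the 3 choosing weeks. In WT mice at 52 weeks it was 4.15, 4.46, 4.87, 4.93 and 4.93 in air and 3.72, 3.79, 4.11, 4.15 and 4.31 under styrene. At 78 weeks it was 4.53 and 4.67 against 3.50 to 3.93, and at 104 weeks 4.86, 5.05, 5.21 and 5.31 against 3.01, 3.36, 3.64, 3.68 and 3.79. The doses overlapped at 52 weeks and stood more than 1 unit apart at 104, when 37.4% of all genes had no overlap. KO mice showed 0.17 at 52 weeks, -0.37 at 78 and -0.67 at 104, where exposed mice were at 3.58, 3.72, 3.98, 4.10 and 4.57 and controls at 4.31 to 5.02. The KO means were thus lower under styrene at 78 and 104 weeks as well.

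In TG mice A930001A20Rik was called lower at 78 weeks alone, by -1.21 ± 0.28 (adjusted p 0.0339). It was 4.83, 4.89, 4.95, 5.12 and 5.25 in air and 3.74, 3.86 and 4.05 under styrene, without overlap, as for 33.4% of all genes in this comparison. It was 1 of 6 genes called, with 30 of all genes (0.191%). The difference was 0.11 ± 0.19 at 26 weeks, 0.14 ± 0.18 at 52 and -0.15 ± 0.17 at 104. All 3 exposed arrays lay on plate 2 and all controls on plate 1. The mean ciliated marker level was 8.02 to 8.36 in air and 7.61 to 7.99 under styrene, and none of the 12 markers was called. The part of either was not tested. The call was lost when C57Bl/6 mice were fitted apart (-1.01, adjusted p 0.501) and without TG air replicate 1, 4 or 5 or styrene replicate 2 (adjusted p 0.0527 to 0.993).

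The 1 probe set of A930001A20Rik gave a low signal in CD-1 mice in either dose. Whether it reads CD-1 and C57Bl/6 mice alike was not tested. Over 26 to 78 weeks CD-1 air mice were lower than TG air mice by a log2 difference of -1.13 ± 0.11 (adjusted p 2.29e-16), 1 of 6 genes in a comparison that called 18.2% of all genes. CD-1 air mice ran from 2.86 to 4.32 (median 3.46, n = 21) and exposed CD-1 mice from 2.72 to 3.69 (median 3.37, n = 21), near the filter level, where a further fall would be compressed. The CD-1 styrene effect was -0.11 (interval -0.34 to 0.12). With age A930001A20Rik rose in TG air mice by 0.88 ± 0.19 from 26 to 78 weeks (adjusted p 0.000503), the second of the 2 genes called there, and differed by 0.07 ± 0.18 in CD-1.

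Pooled over the weeks measured, A930001A20Rik in air was 4.82 ± 0.34 in WT (n = 11) and 4.58 ± 0.41 in TG mice (n = 19). It was 4.52 ± 0.36 in KO (n = 20) and 3.42 ± 0.34 in CD-1 mice (n = 21, all SD). The pooled weeks differ, as WT had no air group at 26 weeks, where KO and TG air means were 4.15 and 4.13. WT had the highest air mean at 52 and 104 weeks. At 78 weeks the WT mean, 4.60, lay below those of KO (4.81) and TG (5.01). The pooled WT, TG and KO levels do not differ beyond their spread. Over arrays with group means removed A930001A20Rik followed the ciliated (r = 0.39) and club cell means (0.38).

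Camk2b in air was higher in WT mice than in the other strains, and in KO mice it also differed by dose. The WT and KO means below hold the arrays that chose the gene, so they describe and are no test. At 26 weeks, outside the choice, exposed WT mice were above exposed KO mice by 0.56, which did not pass. WT mice had 4.32 ± 0.26 (SD, n = 11) in air and 4.37 ± 0.18 (n = 20) under styrene. KO mice had 3.46 ± 0.25 (n = 20) and 4.04 ± 0.37 (n = 19), TG mice 3.24 ± 0.23 and 3.44 ± 0.40 (n = 19 each), and CD-1 mice 3.11 ± 0.16 and 3.15 ± 0.22 (n = 21 each). WT air mice, at 3.74 to 4.85, were with 1 exception above all KO air mice, at 3.15 to 3.95. KO mice that breathed styrene thus came near the level that WT mice had in either dose.

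At 52 weeks, with all arrays on plate 1, Camk2b in KO mice was 3.15, 3.22, 3.29, 3.73 and 3.89 in air and 3.65, 3.90, 4.25, 4.46 and 4.51 under styrene. At 78 weeks it was 3.25 to 3.71 against 3.52 to 4.52, and at 104 weeks 3.20 to 3.70 against 3.72 to 4.63. The doses overlapped at 52 and 78 weeks and were just apart at 104, as for 6.15% of all genes. At 26 weeks, outside the choice, KO controls were at 3.17, 3.28, 3.31, 3.40 and 3.95 and exposed mice at 3.65, 3.75, 3.80 and 3.82. All 4 exposed mice were above 4 of the 5 controls, and the difference of 0.33 ± 0.17 did not pass (adjusted p 0.999).

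TG mice, the other strain without CYP2F2, had a Camk2b difference of 0.39 (interval 0.16 to 0.62) over 26 to 78 weeks with an adjusted p of 0.13. It came mostly from 78 weeks (0.86 ± 0.25, adjusted p 0.0994), where exposed mice were at 3.28, 3.85 and 4.61 and controls at 2.81 to 3.34. The 3 exposed mice spread more than any other group. Camk2b passed in the mean without the plate term (0.38, adjusted p 0.00759), with the first principal component as a covariate (0.39, 0.0165) or without TG styrene replicate 1 at 78 weeks (0.50, 0.00873), and at 78 weeks in the same 3 settings. At 104 weeks the TG difference was -0.12 ± 0.15. In CD-1 mice Camk2b lay between 2.81 and 3.55 on all arrays, around the filter level.

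**Figure D4:**
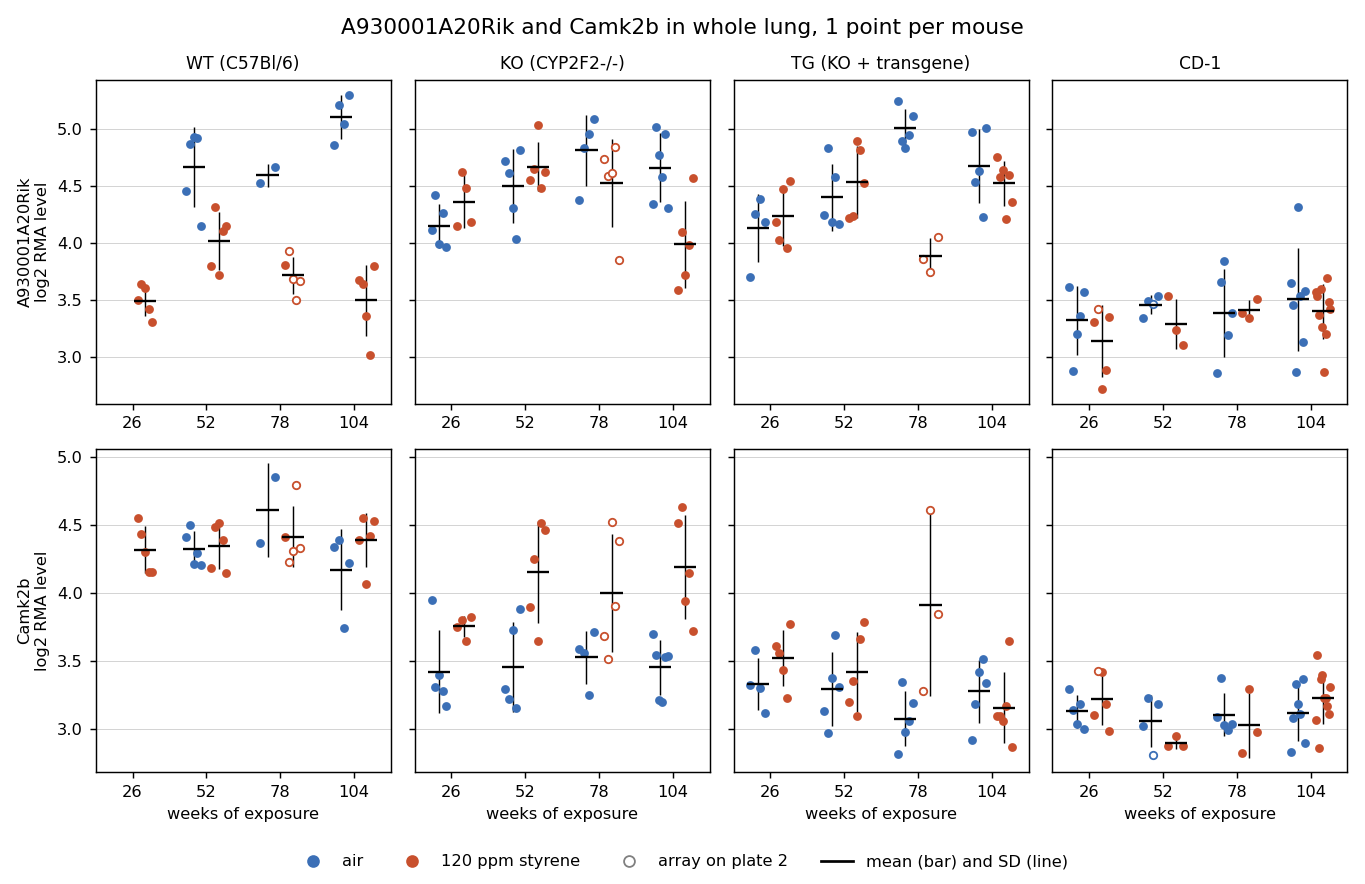
Log2 level of A930001A20Rik (upper row) and Camk2b (lower row) by weeks of exposure, 1 column per strain and 1 point per mouse, with means, SD and plate 2 arrays drawn as for Opn3. A930001A20Rik is lower in exposed WT mice and low in all CD-1 mice, and Camk2b has means of 4.32 and 4.37 in WT air and styrene mice and of 3.46 and 4.04 in KO mice.

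Correlations among the 6 genes covered a narrower range within groups than over group means. Over the 31 group means the correlation of the 15 pairs ran from -0.66 to 0.67, where the choice itself sets much of the pattern, and over the 150 arrays after group means and plate were removed from -0.16 to 0.34. Opn3 and Tcfl5 had r = 0.67 over groups and 0.11 within them. Acss1 and A930001A20Rik had the highest within-group value, 0.34. A mouse's Opn3 relative to its group said little of its Tcfl5.

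The genes most like each member were found by Pearson's r, as a description over points that share plates and strains. Over group means Opn3 was most like Fetub (0.94), a fetuin secreted by the liver, Hsf2bp (0.90) and Serpind1 (0.87), the plasma heparin cofactor II. Fetub rose in CD-1 mice over 26 to 78 weeks by 1.16 ± 0.17 (adjusted p 2e-06), Hsf2bp by 0.80 ± 0.10 (5.08e-09) and Serpind1 by 2.69 ± 0.16 (2.5e-28). All 3 were near 0 in TG mice, at 0.06, -0.00 and -0.13. Within groups Opn3 was most like Ccdc103 (0.57), Cenpv (0.50) and Hes6 (0.49). Serpind1 had r = 0.14 with Opn3 there. Fetub was not among the 3 most alike within groups, and its own value there is not given.

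**Figure D5:**
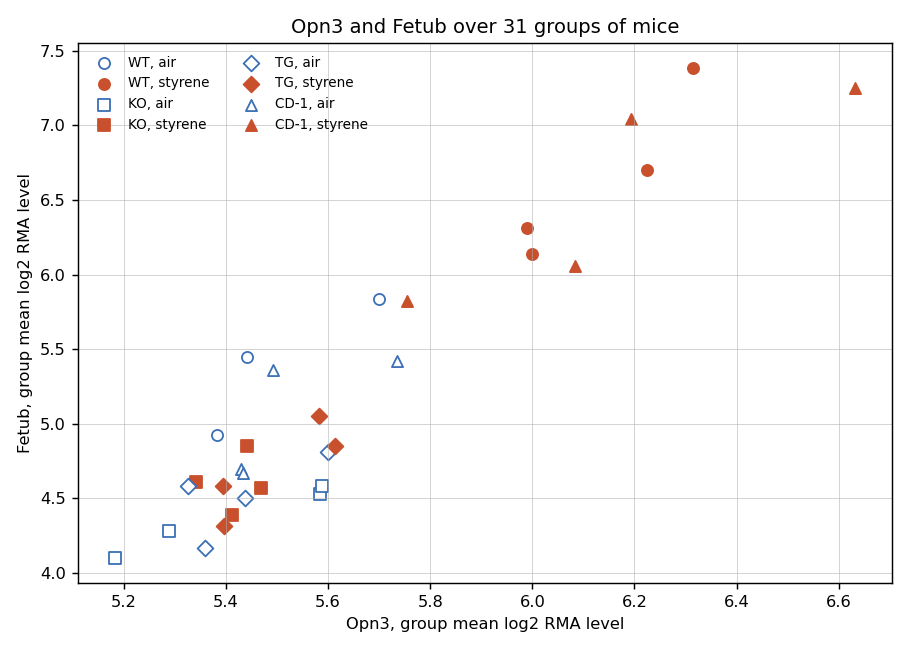
Group mean log2 level of Opn3 (horizontal axis) and Fetub (vertical axis), 1 point per group of mice, open blue for air and filled red for styrene, with a symbol per strain. The exposed WT groups and 3 of 4 exposed CD-1 groups lie at the upper right, and all KO and TG groups of both doses lie at the lower left (r = 0.94 over 31 groups).

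Over group means Tcfl5 was most like Abca3 (0.79), Rnaset2a (0.78) and Smim38 (0.78). Acss1 was most like Ncbp3 (0.74), Cldn8 (0.74), one of the 14 genes of the choosing contrast, and Amer1 (0.73), and Mfsd4a like Cfap20dc (0.73), Tiam1 (0.67) and Igkv6-15 (0.67). A930001A20Rik was most like Acpp (0.89), Map3k7 (0.88) and Cfap206 (0.87), and Camk2b like Gstm6, Med8 (0.80 each) and Cdk5rap1 (0.78). Within groups the highest were Chad (0.59), Clic6 (0.58) and Tmem232 (0.55) for Acss1, Ints6, Erich3 and Dzip1 (0.49 each) for A930001A20Rik, and Emc10, Klf16 (0.46 each) and Ctdnep1 (0.44) for Camk2b. For Mfsd4a they were Sqle (0.42), Cmc1 and Blnk (0.41 each), and for Tcfl5 Asic1, Ndc1 (0.40 each) and Plau (0.39).

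Gene families of the members moved little. In CD-1 mice over 26 to 78 weeks, 1 of 12 opsins and their partners was called, Opn3 itself, and 1 of 17 basic helix-loop-helix factors, Tcfl5 itself. Of 15 enzymes of acetate and acetyl-CoA, Acss2, the cytosolic relative of Acss1, was called higher (0.37 ± 0.09, adjusted p 0.0248). None of 16 calmodulin kinases and their partners and none of 18 MFSD transporters was called. List medians ran from -0.03 for the opsins to 0.09 for the transporters, beside 0.01 over all genes. In TG mice and in the CD-1 minus TG difference none of these 5 lists had a called gene.

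The 8 other genes of the choosing contrast, several of them known as liver products, were followed in the same way. Over 26 to 78 weeks in CD-1 mice Serpind1, Kng1 (1.80 ± 0.21) and Ces1g (1.44 ± 0.18) were called higher and Pon1 (-0.64 ± 0.17) lower. Serpind1, Kng1 and Ces1g also passed in the CD-1 minus TG difference, at 2.82, 2.00 and 1.22, which none of the 6 did. Within groups their correlation with the 6 ran from -0.33 to 0.46, highest for Ces1f with Acss1. Of the marker lists, Scgb3a1 of 13 club cell markers was called lower in CD-1 mice (-1.44 ± 0.38, adjusted p 0.0351), and none of 12 ciliated, 10 alveolar type 2, 9 alveolar type 1, 12 macrophage, 10 heart muscle, 8 B and plasma cell, 7 smooth muscle or 6 neuronal markers.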

How the data were processed

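Lung RNA of 150 mice was measured on Affymetrix HT MG-430 PM arrays, 1 array a mouse. The authors deposited log2 values of 45037 probe sets, made by RMA with Partek per the submitters' processing notes. Their versions were not given in these sources. Gene names came from the platform annotation, which lists 29449 probe sets, 28898 of them with 1 gene and 551 with several; 28689 symbols were updated through Entrez IDs, and the 15588 probe sets not listed were left unnamed. The probe set with the highest mean stood for a gene, giving 17097 genes. Genes above their array's 30th percentile in at least 3 arrays were tested (15695). limma 3.58.1 in R 4.3.3 fitted 31 group means and a plate 2 term to all arrays, and p-values were adjusted by Benjamini-Hochberg over all genes tested, with a threshold of 0.05. The scripts were tested on simulated data. The number of arrays in a group limits the precision.

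The 6 genes and all lists were chosen with earlier results of these data known. Named beyond the 6 were, for each, the 3 genes with the highest Pearson r over group means and within groups, and called genes of the lists. Alternatives were no filter or a stricter one, other probe sets or their mean, eBayes with trend, no plate term, a replicate block and median centring. Others were a principal component, other means of weeks, no tumour-labelled mice, strains fitted apart and each replicate left out. No replicate was left out of the largest groups, which were CD-1 air and styrene, KO air and TG styrene at 104 weeks. Leaving out plate 2 and the CD-1 minus TG comparison at 104 weeks were added after seeing the data. The series' design states 154 mice, of which 150 were analysed here. Promoter sequences are from RefSeq. The labels name separate animals as samples.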

Additional observations from a re-analysis of the deposited data

Results flagged for a closer look

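In 5 of 162 pairs of a gene and a group of 4 to 10 mice, 1 mouse lay far from the others by Dixon's criterion, which chance meets in about 1 of 20. Opn3 was 4.93 in TG air replicate 2 at 26 weeks, with the other 3 mice at 5.59 to 5.64. Acss1 was 8.48 in TG air replicate 4 at 78 weeks, with the others at 8.53 to 8.55, and 8.06 in CD-1 air replicate 3 at 52 weeks, with the others at 8.57 to 8.65. The latter array lay on plate 2. A930001A20Rik was 3.85 in KO styrene replicate 5 at 78 weeks, with the others at 4.59 to 4.84. Camk2b was 3.38 in CD-1 air replicate 2 at 78 weeks, with the others at 2.99 to 3.09.

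The styrene effect at 104 weeks differed between CD-1 and TG mice by limma's test for Tcfl5 (1.45), Opn3 (1.13) and Acss1 (0.37). In that comparison 46% of all genes passed, and dose and plate cannot be told apart in either strain.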

How the results depend on the processing

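Of 215 counts of the 6 genes called, recomputed under other alternatives in 20 comparisons, 190 stayed within 1.5 times. Counts of 0 that stayed 0 are among the 190, and many of the comparisons called none of the 6, so the share says little of how stable calls were. Of the members' values past the threshold 8 reversed sign, all of Acss1 in the choosing contrast or its WT part. Another 53 tested values with no call also changed sign. With the first of the dimmer Acss1 probe sets WT minus KO was 0.23, the WT mean 0.21, WT at 52 weeks 0.12 and at 104 weeks 0.41. It also gave 0.10 for WT at 78 weeks, a change of sign in a value that had not passed. With the second WT minus KO was 0.0044, the WT mean 0.068 and WT at 104 weeks 0.24, and with the mean of probe sets WT at 104 weeks was 0.091. These probe sets were above the filter level on 6 and 4 of 150 arrays. The stricter filter (10812 genes, Tcfl5 not tested) left 1 gene in the CD-1 mean, at 26 weeks and at 104 weeks, 0 for age in CD-1 and 1 for age in TG. Opn3 made 1 call in CD-1 at 78 weeks with the mean of probe sets, the replicate block, median centring, the principal component, no tumour-labelled mice or no plate 2 arrays. No plate term gave 1 call in the TG mean, 2 in TG at 78 weeks and 1 in the CD-1 minus TG mean; the principal component gave 1, 2 and, for exposed WT minus KO at 26 weeks, 4. Without tumour-labelled mice the CD-1 minus TG mean had 1 call. Strains fitted apart gave 0 in the CD-1 mean, at 26 weeks, for age in CD-1 and in TG at 78 weeks, and 4 in WT minus KO. The mean of 26 and 52 weeks gave 1 in CD-1, and that of all 4 weeks 2 in CD-1 minus TG. The cause was not tested.

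With 1 replicate left out, counts ranged from 0 to 1 in CD-1 at 78 weeks and in the TG mean, from 0 to 2 in TG at 78 weeks and from 1 to 3 in WT minus KO at 26 weeks, and did not move in the other comparisons run. All genes called in the CD-1 mean ranged from 22 to 5084 over the alternatives and in TG at 78 weeks from 0 to 7341. Same-numbered mice deviated together in every pair in TG at 26 weeks (4 pairs, r from 0.32 to 0.49). They did so weakly in KO at 52 weeks (5 pairs, r from 0.04 to 0.15). Elsewhere at least 1 pair had a negative r, so the numbers were not taken as pairs. The replicate block changed 1 call, Opn3 in CD-1 at 78 weeks (0.65, adjusted p 0.0342). Tcfl5 had a group mean under the filter level in 16 of 31 groups, every KO group among them. Camk2b had one in 3 groups. There signal limits what a difference can show.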
